A study of Mus musculus with 4 samples.

Results

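Expression of 9 genes of the mitochondrial pathway of apoptosis was followed in whole retina of Fezf2 knockout (KO) mice and control littermates at postnatal days 7 (P7) and 14 (P14). The genes are Bcl2, Bcl2l1, Bax, Bak1, Bbc3, Bcl2l11, Bid, Apaf1 and Casp9, chosen as BCL2 family and caspase pathway genes of developmental neuron death. All 9 were found by symbol among the 22558 symbols of the expression tables, each at a single locus, and all 9 were at 1 FPKM or more in all 4 libraries. FPKM, fragments per kilobase of transcript scaled by the mapped fragments of the library, is a level per transcript length, so levels can be set side by side between genes. The 4 groups were control retina at P7 (labelled wildtype), Fezf2KO retina at P7, control retina at P14 and Fezf2KO retina at P14, all on the background that the labels give as C57/BL/6J. Fezf2 is a zinc-finger transcription factor of neural development, and the study asked what its loss does to gene expression in the developing retina. The labels do not describe the KO allele, the sex of the mice or how many retinas or animals went into a library. With 1 library per group there was no replicate, and no test between the genotypes at a single age was possible.

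In the mitochondrial pathway, the fate of a cell is set at the outer mitochondrial membrane. Antiapoptotic proteins such as BCL2 and BCL-XL (the main product of Bcl2l1) hold the pore-forming effectors BAX and BAK in check, and BH3-only proteins such as PUMA (Bbc3), BIM (Bcl2l11) and BID release that hold or engage the effectors directly. Once the membrane is permeable, cytochrome c joins APAF1 in the apoptosome, which activates caspase 9 and through it the executioner caspases. In the retina this pathway removes surplus ganglion, bipolar and other neurons during the first postnatal weeks, and loss of Bax is known to spare many of them.

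The labels were checked on the targeted gene and on retinal markers. Fezf2 stood at 8.32 FPKM in control P7, 0.592 in KO P7, 4.02 in control P14 and 0.126 in KO P14, low in both KO libraries. Of the 8 rod markers 0 were below 1 FPKM in all libraries, and Nrl, the transcription factor gene of rods, was at 693 FPKM in control P7, 710 in KO P7, 1098 in control P14 and 1231 in KO P14. Signal of neighbouring tissue differed between libraries. The summed level of 7 lens and ciliary body markers was 10.2 FPKM in control P7, 33.0 in KO P7, 62.0 in control P14 and 13.4 in KO P14. That of 6 erythroid markers was 291, 339, 1180 and 356 FPKM in the same order. The lens gene Mip stayed at or below 0.369 FPKM and the erythroid gene Slc4a1 at or below 0.0706 FPKM throughout. Mip and Slc4a1 do not stand for their lists. The median KO minus control difference at P14, in log2(FPKM + 1), was -2.05 over 4 lens and ciliary body markers at 1 FPKM or more. Over 5 erythroid markers it was -1.74. The 9 pigment epithelium markers summed to 94.7, 108, 153 and 106 FPKM in the same order of libraries. The part of these tissues in the results below was not tested. In whole tissue, fewer cells of a type and less RNA per cell cannot be told apart.

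Each level came with a lower and an upper bound that cover counting error within a library, and a pair of levels is called apart, or beyond counting error, if their bounds did not overlap. If the bounds span 2 standard deviations on each side, Bbc3 rested on 52 fragments in control P14, the fewest of any of the 9 genes, and on 104 in KO P14. On the same assumption, which could not be checked well in these data, Bcl2l1 rested on 1072 to 2236 fragments. For Bax and Bcl2l1 the deposited level lay above its own upper bound in all 4 libraries, so for these genes bounds were compared only with bounds. The mismatch was general. It held for 1688 of 6348 genes at 10 FPKM or more in control P14, the fewest, and 2094 of 6319 in KO P14, the most. The deposited levels themselves entered the ranks, differences, sums and fits below.

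From P7 to P14, 7 of the 9 genes fell in both genotypes: Bcl2l1, Bax, Bak1, Bbc3, Bcl2l11, Bid and Casp9, where 34.2% of all genes fell in both. Bcl2 and Apaf1 did not fall beyond counting error in either. Between the genotypes only Apaf1 at P7, lower in the KO, and Bbc3 at P14, higher in the KO, were apart beyond counting error, 1 gene of 9 at each age where 13.4% of all genes were apart at P7 and 15.7% at P14. The levels of the 9 genes are described below by role, each with all 4 libraries.

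**Figure D1:**
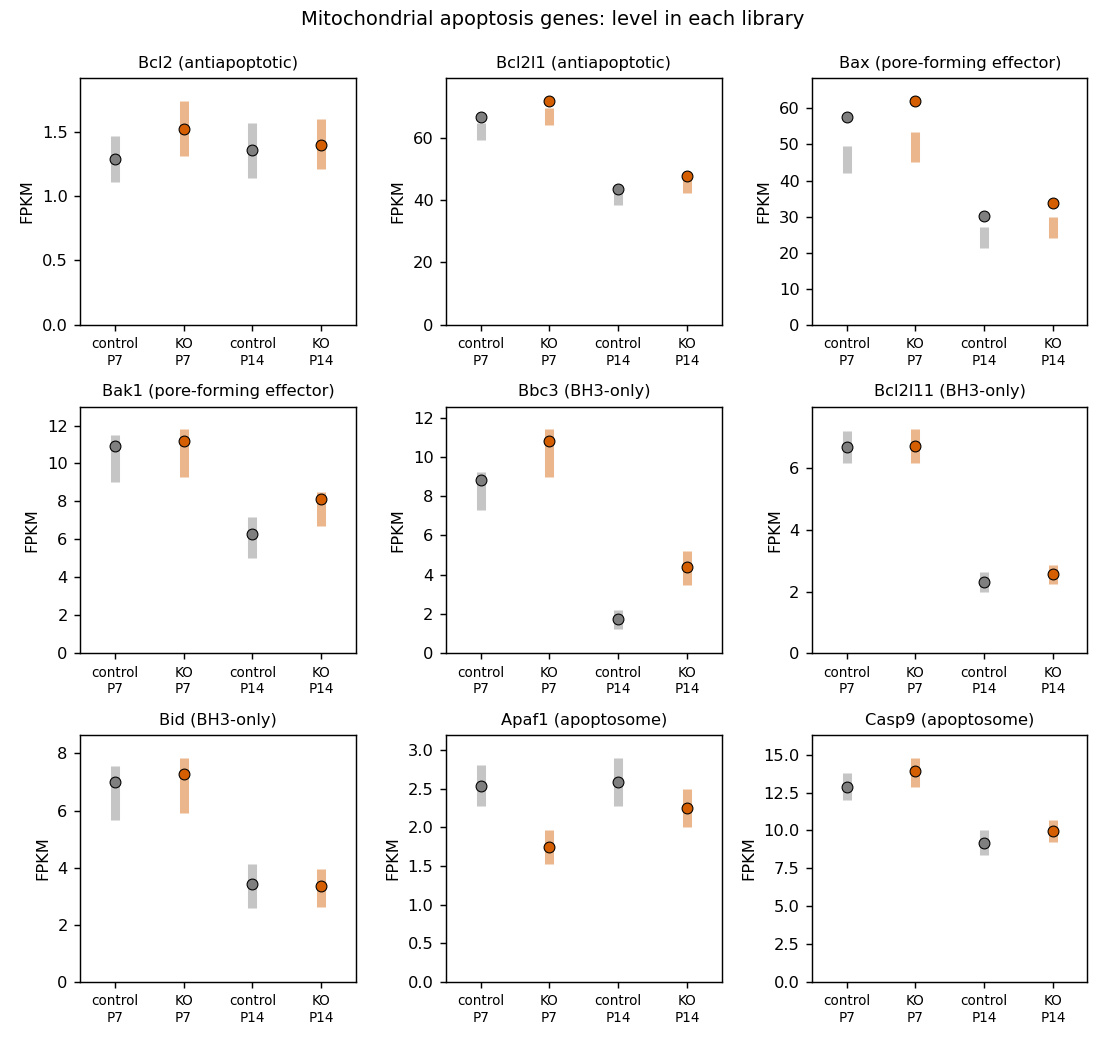
Level in FPKM (y axis, from 0) of each of the 9 genes in the 4 libraries (x axis), control in grey and Fezf2 KO in orange; points are deposited levels and bars the deposited lower to upper bounds, which cover counting error only. The P14 points lie below the P7 points for 7 genes, the Bbc3 point of the KO at P14 (4.38 FPKM) lies above that of the control (1.73 FPKM), and the Bax and Bcl2l1 points lie above their own bars.

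Among the antiapoptotic genes, Bcl2l1 was the most abundant of the 9 in every library. The gene lies at chr2:152606404-152657418 of the mm9 build. It stood at 66.7 FPKM in control P7, 71.9 in KO P7, 43.5 in control P14 and 47.8 in KO P14, between percentiles 87.0 and 92.5 of the genes at 1 FPKM or more. The P7 libraries were high and the P14 libraries low in both genotypes, while the bounds of control and KO overlapped at each age. Bcl2, the founding member of the family, was the least abundant of the 9 in every library. At chr1:108434756-108610867, its levels were 1.29 FPKM in control P7, 1.52 in KO P7, 1.36 in control P14 and 1.40 in KO P14, and the bounds of all 4 overlapped. Bcl2l1 was thus at 32.0 to 51.6 times the level of Bcl2. The gene-level values do not separate the long antiapoptotic from the short proapoptotic splice form of Bcl2l1.

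Of the pore-forming effectors, Bax (chr7:52717065-52722268) was at 57.7 FPKM in control P7, 62.1 in KO P7, 30.3 in control P14 and 33.8 in KO P14. Bak1 (chr17:27156757-27165571), its functional relative, was at 10.9, 11.2, 6.26 and 8.11 FPKM in the same order. For both genes the P7 bounds lay above the P14 bounds within each genotype and those of the genotypes overlapped at each age. Bax was the second most abundant of the 9 genes and Bak1 the fourth in every library, and the ratio of Bax to Bak1 ran from 4.17 in KO P14 to 5.57 in KO P7.

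The BH3-only genes had a lower summed level than the effectors, and Bbc3 and Bcl2l11 had the largest declines with age of the 9 genes. Bbc3 (chr7:16894932-16903683) was at 8.83 FPKM in control P7, 10.8 in KO P7, 1.73 in control P14 and 4.38 in KO P14. Its bounds overlapped between the genotypes at P7 (7.30 to 9.25 and 8.98 to 11.4) and were apart at P14 (1.24 to 2.20 and 3.49 to 5.20). Bcl2l11 (chr2:127951774-127988283) was at 6.69, 6.72, 2.30 and 2.56 FPKM in the same order of libraries, low at P14 in both genotypes and nearly level between them. Bid (chr6:120843137-120866838), whose product links death receptors to the mitochondrion, was at 7.00, 7.29, 3.43 and 3.37 FPKM, again low at P14 in both genotypes.

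Of the apoptosome genes, Casp9 (chr4:141349527-141371890), the initiator caspase gene, was at 12.9 FPKM in control P7, 13.9 in KO P7, 9.20 in control P14 and 9.98 in KO P14. Its locus overlaps that of the pancreatic elastase gene Cela2a, whose upper bound was at most 0.144 FPKM in any library. Apaf1 (chr10:90452056-90545488) was at 2.53 FPKM in control P7, 1.74 in KO P7, 2.59 in control P14 and 2.25 in KO P14. The KO P7 library was the low one, and both control libraries had nearly the same level.

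The order of the first 4 genes was Bcl2l1, Bax, Casp9 and Bak1 in every library, with bounds apart between neighbours down to Bak1. Below Bak1 the order was Bbc3, Bid, Bcl2l11, Apaf1 and Bcl2 in control P7, KO P7 and KO P14. Control P14 had Bid, Apaf1, Bcl2l11, Bbc3 and Bcl2, with overlapping bounds between each of these neighbours. At P7, Bid and Bcl2l11 overlapped in both genotypes, and Apaf1 and Bcl2 overlapped in the KO library.

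The change with age was read in 2 comparisons that share no library. In the control, 7 of the 9 genes were lower at P14 beyond counting error and 0 higher, while 37.7% of 13112 genes at 1 FPKM or more were lower and 27.6% higher in this way. In the KO, 7 were lower and 1, Apaf1, was higher, against 39.4% lower and 29.0% higher of 13044 genes. The 7 genes were the same in both genotypes, and 34.2% of 12910 genes were lower in both. The median difference of the 9 genes in log2(FPKM + 1) was -0.71 in the control and -0.58 in the KO, and that of all genes -0.08 and -0.09.

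In the control Bbc3 had the largest change of the 9 genes, and in the KO Bbc3 and Bcl2l11 were close. The level of Bbc3 at P14 was 19.6% of that at P7 in the control and 40.5% in the KO, differences of -1.85 and -1.14 in log2(FPKM + 1), and 99 of 13112 genes had a lower difference in the control and 736 of 13044 in the KO. Bcl2l11 changed by -1.22 and -1.12, its P14 level being 34.4% and 38.1% of that at P7. In the KO its fall was thus the larger of the pair on the FPKM scale, and also with a pseudocount of 0.1 FPKM (-1.36 against -1.29 for Bbc3) or on the TPM scale (-1.34 against -1.31). Bax changed by -0.91 and -0.86, Bid by -0.85 and -0.93, Bak1 by -0.71 and -0.42, Bcl2l1 by -0.60 and -0.58, and Casp9 by -0.45 and -0.44. Bcl2 changed by 0.04 and -0.07, within counting error in both. Apaf1 changed by 0.02 in the control, within counting error, and when rescaled to the sum of long genes the control values turned to -0.01 for Bcl2 and -0.05 for Apaf1. In the KO, Apaf1 changed by 0.25, which was beyond counting error on the FPKM scale but not when the libraries were rescaled to TPM (0.23) or to the sum of long genes (0.17).

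A limma fit of genotype and age as additive terms over the 4 libraries and 13057 genes called the same 7 genes lower at P14 and 0 higher, with 38.9% of all genes called lower and 28.9% higher. With median-ratio scaling of the libraries the 7 genes were again called lower, while 4231 of 13042 genes were called lower and 4512 higher, in place of 5083 lower and 3775 higher. The estimates, in log2(FPKM + 1), were -1.49 for Bbc3 (SE 0.17, limma adjusted p = 0.000581) and -1.17 for Bcl2l11 (SE 0.10, adjusted p = 0.000201). Those of Bax and Bid were -0.88 and -0.89 (limma adjusted p = 0.000159 and 0.000491), and those of Bcl2l1, Bak1 and Casp9 were -0.59, -0.56 and -0.44 (limma adjusted p = 0.000594, 0.00441 and 0.00478). Each of the 7 was lower in both genotypes. The estimates for Bcl2 and Apaf1 were -0.02 and 0.13 (limma adjusted p = 0.908 and 0.326). The fit has 1 residual degree of freedom and leans on a spread shared between genes.

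**Figure D2:**
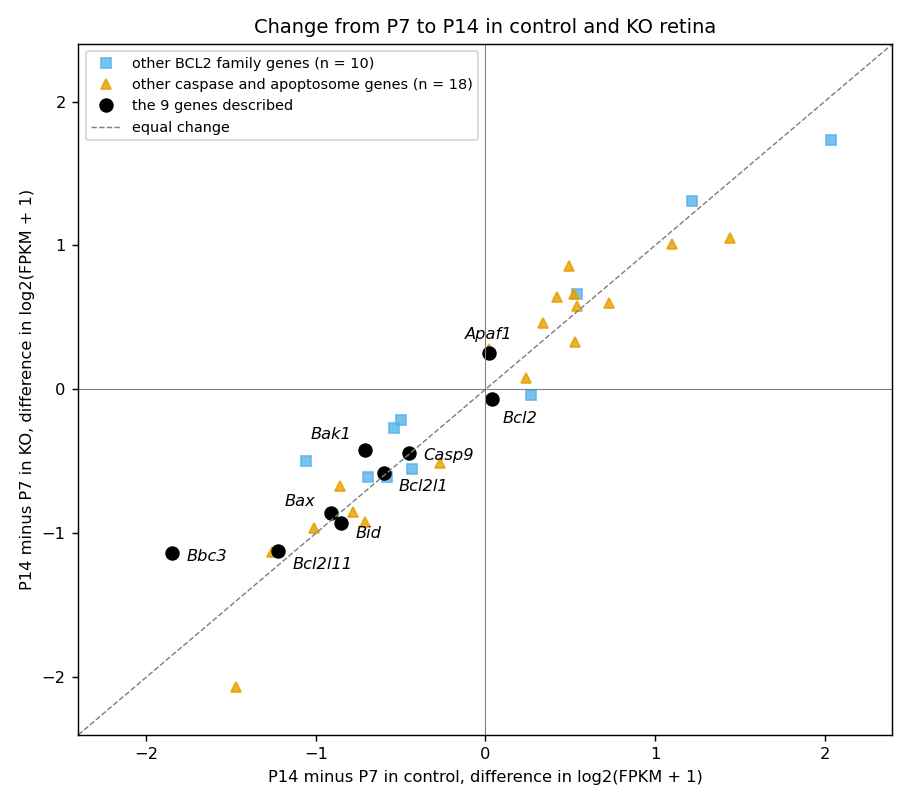
P14 minus P7 difference in log2(FPKM + 1) in control (x axis) and KO retina (y axis) for the 9 genes (black, named), 10 other BCL2 family genes (blue squares) and 18 other caspase and apoptosome genes (orange triangles) at 1 FPKM or more in at least 1 library; the dashed line marks equal change. Of the 9 genes, 7 lie in the lower left, Bbc3 lies farthest from the line (-1.85 in control, -1.14 in KO), and the other genes spread over both directions.

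Other genes of the pathway went both ways with age. Of 15 further BCL2 family genes 10 reached 1 FPKM in a P7 or P14 control library, and 4 of these were higher and 5 lower at P14 beyond counting error (median -0.46). In the KO, 3 were higher and 4 lower (median -0.24). The shares over all genes were the 27.6% higher and 37.7% lower given above for the control and 29.0% and 39.4% for the KO. Bcl2l2, the gene of the antiapoptotic protein BCL-W, was at 23.3 FPKM in control P7, 21.9 in KO P7, 55.6 in control P14 and 55.9 in KO P14, higher at P14 in both genotypes and above Bcl2l1 in both P14 libraries. Mcl1, another antiapoptotic gene, was at 40.4, 43.5, 26.8 and 28.2 FPKM, and so lower at P14 in both genotypes. Bnip3, a BH3-like gene of mitophagy, was higher at P14 (115 against 27.3 FPKM in the control, 99.2 against 29.2 in the KO), as was the BH3-only gene Bad (17.9 FPKM in control P14 and 19.1 in KO P14, differences of 0.54 and 0.66). The effector relative Bok was lower (5.62 against 12.8 and 7.46 against 10.9), and so was the BH3-only gene Hrk (0.487 against 1.41 and 0.471 against 1.25). Pmaip1, the BH3-only gene of NOXA, stayed at or below 0.510 FPKM in all 4 libraries.

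Of 21 further caspase and apoptosome genes 18 reached 1 FPKM, and 9 were higher and 6 lower at P14 in the control (median 0.29), 10 higher and 7 lower in the KO (median 0.31), against 27.6% and 37.7% of all genes in the control and 29.0% and 39.4% in the KO. Xiap, which encodes an inhibitor of caspases, was at 27.4 FPKM in control P7, 28.3 in KO P7, 76.2 in control P14 and 59.6 in KO P14, high at P14 in both genotypes. Cycs, the cytochrome c gene, was at 13.9, 13.9, 20.7 and 21.3 FPKM in the same order. Birc6, a large inhibitor of apoptosis gene, went the other way, at 12.6, 12.7, 4.67 and 5.28 FPKM. Of 18 genes of a list of p53, its partners and its targets, 15 reached 1 FPKM, and 3 were higher and 7 lower at P14 in the control, 4 higher and 7 lower in the KO. This list too is set against the shares of all genes given for the caspase list. Trp53 itself was at 24.0, 22.9, 6.10 and 6.93 FPKM, and Cdkn1a, the gene of the cell cycle inhibitor p21, at 16.5, 20.2, 4.80 and 6.75 FPKM. Both were lower at P14 in both genotypes.

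Cell type markers changed over the same interval. The summed level of 8 rod markers was 4805 FPKM in control P7 and 18498 in control P14, and 4892 and 19626 in the KO. That of 8 Mueller glia markers was 922 and 2249 FPKM in the control and 970 and 2390 in the KO. That of 10 microglia markers was 80.7 and 39.0 FPKM in the control and 83.3 and 36.5 in the KO. That of 9 progenitor and cell cycle markers was 94.7 and 77.0 FPKM in the control and 97.4 and 83.2 in the KO. Of that sum Pcna, which also serves DNA repair, gave 46.1 and 55.9 FPKM in the control and 44.9 and 60.7 in the KO. Without Pcna the other 8 summed to 48.5 and 21.1 FPKM in the control and 52.5 and 22.5 in the KO. The proliferation gene Mki67 was at 0.958 and 0.935 FPKM in the P7 libraries and 0.0311 and 0 in the P14 libraries. The part of these cells in the change of the 9 genes was not tested.

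Summed by role, the antiapoptotic genes Bcl2 and Bcl2l1 were at 68.0 FPKM in control P7, 73.4 in KO P7, 44.9 in control P14 and 49.2 in KO P14. The effectors Bax and Bak1 summed to 68.6, 73.2, 36.6 and 41.9 FPKM, and the BH3-only genes to 22.5, 24.8, 7.46 and 10.3 FPKM. Antiapoptotic and effector sums of the levels were nearly equal in both P7 libraries, and their ratio was 0.992 in control P7, 1.23 in control P14 and 1.17 in KO P14. Since the levels of Bax and Bcl2l1 lay above their own bounds, the ratio was also taken from the bounds, which allowed 0.989 to 1.30 in control P7, 1.15 to 1.70 in control P14 and 1.14 to 1.58 in KO P14, ranges that overlap. Bcl2l1 over Bax alone was 1.16 from the levels of each P7 library, below the range that the bounds allowed, which ended at 1.54. The antiapoptotic sum also depends on which genes are counted. With Bcl2l2 and Mcl1 added it was 132 FPKM in control P7, 139 in KO P7, 127 in control P14 and 133 in KO P14, nearly level with age, and its ratio to the effectors was 1.92, 1.90, 3.48 and 3.18. The BH3-only sum was 33.1% and 33.9% of the sum of Bcl2 and Bcl2l1 at P7 and 16.6% and 21.0% at P14. Bbc3 made up 39.2% of the BH3-only sum in control P7, 43.6% in KO P7, 23.2% in control P14 and 42.5% in KO P14, so the control P14 library had the low share. These ratios come from 1 library each and were not tested.

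**Figure D3:**
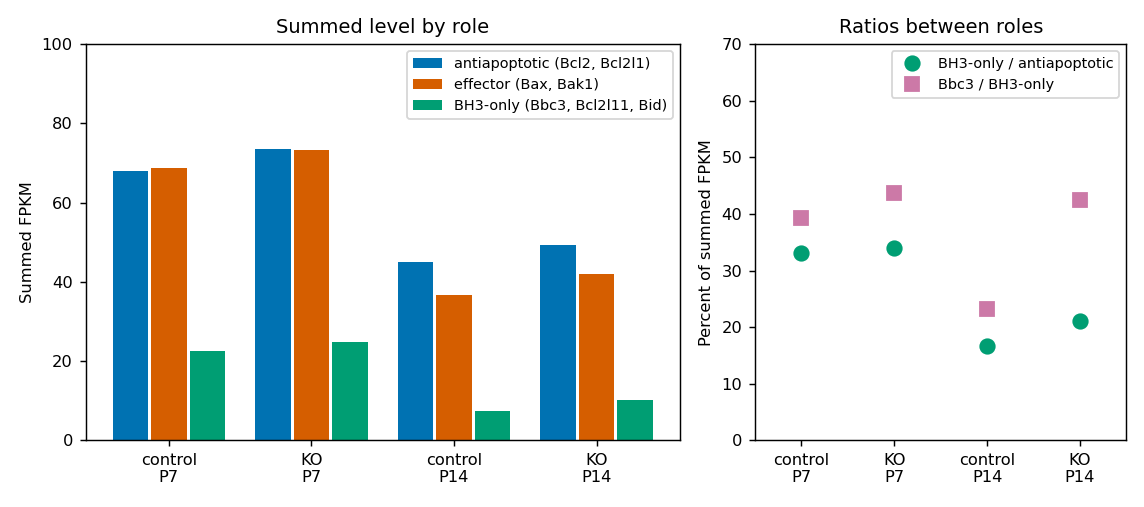
Left, summed FPKM (y axis, from 0) of the antiapoptotic, effector and BH3-only genes in each library (x axis); right, the BH3-only sum as a percent of the antiapoptotic sum (circles) and Bbc3 as a percent of the BH3-only sum (squares). The sums drawn, with Bcl2 and Bcl2l1 as the antiapoptotic genes, are lower at P14, and the share of Bbc3 is 23.2% in control P14 and 39.2% to 43.6% in the other 3 libraries; no error is drawn because each group is 1 library.

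Between the genotypes at P7, 1 of the 9 genes was apart beyond counting error (11.1%), where 13.4% of 12665 genes at 1 FPKM or more were, a share near the background. That gene was Apaf1, at 68.7% of the control level (difference -0.37 in log2(FPKM + 1)), and 345 of the 12665 genes had a lower difference. The other 8 genes were higher in the KO library by 0.01 to 0.27, each with bounds that overlapped those of the control. By the looser measure, the half-widths of both bounds combined, Bbc3 (0.27 against 0.22) and Bcl2l1 (0.11 against 0.09) exceeded it. The smallest of the 8 differences turned on other scales, Bcl2l11 to -0.02 in TPM and -0.03 on the long-gene scale and Bak1 to -0.01 on the latter. Bbc3 had the highest difference of the 9 genes, at 123% of the control level. The median of the 9 was 0.10, and that of all genes 0.01.

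At P14 again 1 of the 9 genes was apart (11.1%), where 15.7% of 12804 genes were. That gene was Bbc3, whose level in the KO was 2.53 times that in the control (difference 0.98). Only 9 of the 12804 genes had a higher difference, and 8 of these were beyond counting error. Bak1 was at 8.11 against 6.26 FPKM (0.33) with bounds that overlapped. Bid and Apaf1 were lower in the KO by differences of -0.02 and -0.14, and the other 5 genes were higher by 0.03 to 0.15. The bounds of all these genes overlapped between the genotypes, and Bcl2 turned to -0.01 on the long-gene scale. The differences of Bak1 and Bcl2l1 (0.33 and 0.13) exceeded their combined half-widths of 0.27 and 0.11. The median of the 9 was 0.11, and that of all genes 0.00.

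**Figure D4:**
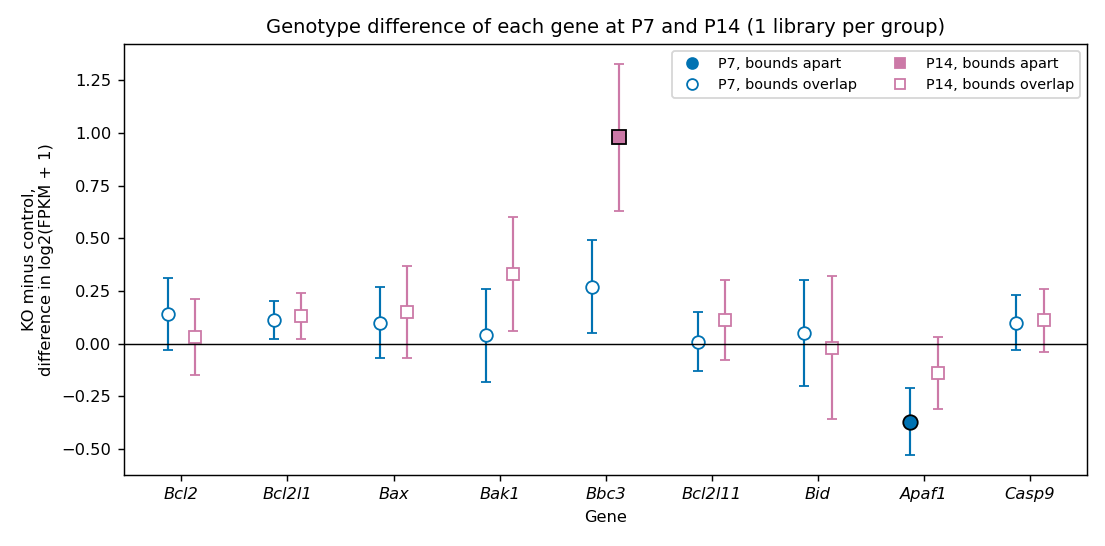
KO minus control difference in log2(FPKM + 1) (y axis) of each gene (x axis) at P7 (circles) and P14 (squares); filled symbols mark bounds that do not overlap, and error bars combine the widths of the bounds of both libraries, so they cover counting error only. Bbc3 at P14 (0.98) and Apaf1 at P7 (-0.37) are the filled symbols; some open symbols have error bars clear of 0 because non-overlap is the stricter rule.

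In the limma fit 0 of the 9 genes were called for genotype, where 7 of 13057 genes were called higher (0.0536%) and 27 lower (0.207%), and 1 of the 9, Bbc3, had an unadjusted p below 0.05, as did 7.31% of the 13057 genes. Its estimate was 0.62 (SE 0.17, limma adjusted p = 0.589), and it was higher in the KO library at both ages. The estimate for Apaf1 was -0.25 (SE 0.11, limma adjusted p = 0.684), lower in the KO at both ages. For the other 7 genes the estimates lay between 0.02 for Bid and 0.18 for Bak1. The genotype difference of Bbc3 was larger at P14 than at P7 by 0.71. The half-widths of the bounds combined to 0.41, a looser measure than non-overlap of bounds. The genotype difference of Apaf1 was smaller in size at P14 (-0.14 against -0.37). With 1 library per group the difference between the ages could not be tested. The fit counts that difference as residual spread, so it cannot tell a genotype difference at 1 age from noise.

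Around Bbc3, the p53 list had 5 of 15 genes higher at P14 in KO retina and 1 lower beyond counting error, with a median of 0.14, while 7.45% of all genes were higher and 8.24% lower. Cdkn1a was at 6.75 against 4.80 FPKM, Sesn2 at 9.58 against 6.34 and Btg2 at 38.5 against 28.1, while Ccng1 was at 27.8 against 32.8. Trp53 was within counting error at 6.93 against 6.10 FPKM. At P7, 2 of the 15 were higher and 1 lower, against 7.34% and 6.10% of all genes, Cdkn1a (20.2 against 16.5 FPKM) and Mdm2 (31.7 against 28.0) being the higher ones. Of 16 stress signalling genes upstream of BH3-only genes, 4 were higher at P14 in KO retina and 0 lower. Among them were the activity-responsive genes Egr1 (18.9 against 5.15 FPKM), Fos (20.9 against 9.94) and the phosphatase gene Dusp1 (21.9 against 9.83). In the same library 9 astrocyte and reactive glia markers summed to 53.8 against 34.6 FPKM, with 2 of the 7 at 1 FPKM or more higher beyond counting error. Gfap, the intermediate filament gene of reactive glia, was at 20.6 against 9.32 FPKM. The 9 ganglion cell markers summed to 1289 against 1111 FPKM, and 7 of them were higher beyond counting error. Other cell type lists differed as well. Of 8 rod markers 5 were higher and 1 lower, and of 8 Mueller glia markers 3 were higher and 0 lower. Of 9 bipolar markers 1 was higher and 5 lower. Lower markers numbered 6 of 7 for pigment epithelium, 3 of 4 for lens and ciliary body and 5 of 5 for erythroid cells, with 0 higher. The part of these genes and cells in the Bbc3 value was not tested.

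Genes downstream of the mitochondrion went both ways between the genotypes at P14. Xiap was lower in the KO at 59.6 against 76.2 FPKM and Birc6 higher at 5.28 against 4.67, both beyond counting error. Of the further caspase and apoptosome genes 1 of 16 was higher and 2 lower, where 7.45% of all genes were higher and 8.24% lower. Of the further BCL2 family genes 0 of 9 were higher and 2 lower, the mitophagy genes Bnip3 (99.2 against 115 FPKM) and Bnip3l (60.6 against 69.5). At P7 the BH3-only gene Bmf (10.1 against 13.3 FPKM) and Bcl2l13 (13.3 against 15.6) were lower and Bnip3l (62.4 against 57.3) higher among 10, and Dffa, which encodes the inhibitor of the caspase-activated DNase (9.78 against 12.3), was the 1 lower gene among 18 caspase and apoptosome genes with 0 higher. Over all genes 7.34% were higher and 6.10% lower at P7. Of 7 death receptor genes 0 were higher or lower beyond counting error at either age. No library had a replicate, so these counts describe the libraries, not the genotypes.

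Among the 9 genes Bbc3 had both the largest single genotype difference, that at P14, and the largest age difference in the control, while at P7 the genotype difference of Apaf1 was larger in size. The genes whose profile over the 4 libraries was nearest to it, by root mean square distance of centred log2(FPKM + 1) among 12866 genes, were Poc1a (0.195), Cdkn1a (0.199) and 1700084E18Rik (0.200). Poc1a was at 7.51 FPKM in control P7, 7.53 in KO P7, 1.70 in control P14 and 2.85 in KO P14. Cdkn1a, given above, was higher in the KO library at both ages beyond counting error. With 4 libraries such a likeness is a description only.

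The 250 bases before the annotated start are shown for Bbc3 and Bcl2l11, which fell furthest with age, for Bax, the most abundant effector, and for Apaf1, which was apart between the genotypes at P7. All 9 genes matched the RefSeq promoter table by symbol, with 14 windows in all, in the build GRCm38.p6. This build is not the mm9 build of the expression files, and which of the 3 annotated starts of Bbc3 or 2 of Bcl2l11 was used in the retina is not known from the files. Capitals mark matches, on either strand, to the GC box GGGCGG, the cyclic AMP response element TGACGTCA and the E2F forms TTTGGCGC and TTTCGCGC. They also mark the EGR site GCGTGGGCG, the AP-1 site TGANTCA, the FOXO core GTAAACA, the TATA box TATAAA and the p53 half-site. The p53 half-site is a decamer and not a full site, which was not searched for. Of several starts, the one whose window held a FOXO match was shown. The windows are Bbc3 at chr7:16310011-16310260 (plus strand, second of 3 starts), Bcl2l11 at chr2:128125788-128126037 (plus strand, first of 2), Bax at chr7:45466899-45467148 (minus strand) and Apaf1 at chr10:91082744-91082993 (minus strand), each written 5′ to 3′ toward the start of the gene.
Bbc3: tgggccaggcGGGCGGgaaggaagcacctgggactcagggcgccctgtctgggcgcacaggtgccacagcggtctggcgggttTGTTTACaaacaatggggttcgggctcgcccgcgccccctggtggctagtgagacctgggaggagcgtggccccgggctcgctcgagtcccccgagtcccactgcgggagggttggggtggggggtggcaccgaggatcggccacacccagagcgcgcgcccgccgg
Bcl2l11: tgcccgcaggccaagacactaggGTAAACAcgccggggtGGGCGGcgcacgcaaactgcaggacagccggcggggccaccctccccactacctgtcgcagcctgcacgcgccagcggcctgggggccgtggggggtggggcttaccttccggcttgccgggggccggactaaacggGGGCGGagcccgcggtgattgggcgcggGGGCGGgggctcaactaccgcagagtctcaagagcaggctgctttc
Bax: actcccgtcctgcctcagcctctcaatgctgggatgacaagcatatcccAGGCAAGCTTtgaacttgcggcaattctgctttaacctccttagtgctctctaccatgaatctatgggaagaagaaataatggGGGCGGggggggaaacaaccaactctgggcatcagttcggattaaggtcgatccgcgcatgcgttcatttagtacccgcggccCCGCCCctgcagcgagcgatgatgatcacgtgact
Apaf1: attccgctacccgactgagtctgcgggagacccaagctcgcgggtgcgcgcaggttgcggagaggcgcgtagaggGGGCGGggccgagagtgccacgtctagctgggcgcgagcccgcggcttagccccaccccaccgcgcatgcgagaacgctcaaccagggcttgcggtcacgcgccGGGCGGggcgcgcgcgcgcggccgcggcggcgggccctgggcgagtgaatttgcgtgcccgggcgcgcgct

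The Bbc3 window shown held the FOXO core, 167 bases before the start, and so did the Bcl2l11 window shown, at 227 bases. The other 2 windows of Bbc3 and the other window of Bcl2l11 did not hold it, so it lay in 2 of the 14 windows of the 9 genes, and 3.17% of 32851 windows of the same length held it. The Bax window held the p53 half-site 201 bases before the start, found in 7.13% of all windows. It lay in no other of the 14 windows, those of Bbc3 included, so the 9 genes stood near that share. All 4 windows held the GC box, 1 match in Bbc3, 3 in Bcl2l11, 2 in Bax and 2 in Apaf1, and 32.7% of all windows did. The windows of Bbc3 and Bcl2l11 at the other starts also held it, with 5 and 7 matches in Bbc3 and 2 in Bcl2l11. Among the other members the windows of Bcl2, Bid and Casp9 held 7, 3 and 4 matches. The 3 windows of Bcl2l1 and the window of Bak1 held 0. No match to the cyclic AMP response element, the EGR site, the AP-1 site or the TATA box lay in these 4 windows. In the 4 windows matches to different motifs did not overlap. A match is a run of letters and says nothing of binding in these retinas, and the windows are GC-rich (54.0% in Bax to 75.6% in Apaf1, against a median of 52.4% over all windows).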

How the data were processed

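Retinal RNA was sequenced as 36-base single reads from randomly primed cDNA with no stated strand marking. The deposited FPKM values and their bounds are the authors' own; the submitters' processing notes name Cufflinks 2.1.1, TopHat2 2.0.8b, CASAVA 1.8.2 and mm9, and neither annotation nor options are stated. Here, 23021 loci were summed to 22558 symbols, and 16 symbols with a failed value were left out. Backgrounds take genes at 1 FPKM or more in either library, without small RNA genes and loci under 300 bases. Differences are in log2(FPKM + 1), a scale that shrinks changes at low levels. No counts were available. Of genes with 5 to 30 fragments implied by the bounds, 22.6% to 26.7% came out whole (within 0.1). That is not far above the share that this tolerance passes by itself. The check thus gives little ground for the implied fragments, depth is known only roughly, and no count test was run. Reads were amplified by PCR without molecular identifiers.

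Genotype and age were fitted with limma 3.58.1 (variance trend, Benjamini-Hochberg adjustment) on genes reaching 1 FPKM in 2 libraries or more. In 20 simulated data sets of 13057 genes, 200 genes were changed with age. A median of 48 of 50 genes changed 1.5-fold and 50 of 50 changed 2-fold were recovered. The share of false calls had a median of 22.8% (highest 33.2%), above the nominal 5%. In these data the age term called 3775 genes higher and 5083 lower, so recovery and false share may differ in them. The genotype term was not simulated. The 9 genes and the 20 gene lists were chosen with earlier results of these data known. By rule, named genes are the 9, Fezf2, the pathway list genes furthest apart beyond counting error and the 3 nearest to Bbc3; Cela2a, Pmaip1, Nrl, Mip, Slc4a1, Mki67 and Gfap were named after their values were seen, and some list genes are not reported here. Alternatives were other pseudocounts, no floor, rescalings and other limma settings. A further one asked, beside the bounds, for a difference of at least 0.26 in log2(FPKM + 1), meant as a fold of 1.2.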

Additional observations from a re-analysis of the deposited data

Results flagged for a closer look

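Among the genes of the 6 pathway lists outside the 9, the difference of 3 turned its sign between groups, beyond counting error each time. These were 2 of 74 genes between the ages in the genotype difference and 1 of 78 between the genotypes in the age change. The share over all genes was not computed, and the turn was not tested because each group is 1 library. Bnip3l, a mitophagy gene, differed between KO and control by 0.12 at P7 and -0.19 at P14 in log2(FPKM + 1). Btg2, an antiproliferative gene of the p53 list, differed by -0.12 at P7 and 0.44 at P14. Egr1 changed from P7 to P14 by -0.94 in the control and 0.48 in the KO. Among the 9 genes no such turn was seen. In the cell type marker lists 7 of 95 genes turned between the ages in the genotype difference and 5 of 97 between the genotypes in the age change.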

How the results depend on the processing

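All 50 alternatives tried for the counts and medians over the 9 genes kept the reported value within its spread or within 1.5 times. Among them the setting with no floor could not change a median, since all 9 genes were at 1 FPKM or more in every library. The median age difference ran from -0.83 to -0.60 in the control and from -0.69 to -0.47 in the KO, and the median genotype difference from 0.06 to 0.10 at P7 and from 0.07 to 0.13 at P14. For single genes 171 of 180 alternatives lay within the combined half-width of the bounds around the reported value and 9 beyond it. All 9 were for age changes of Bbc3, Bcl2l1 or Bcl2l11 with the direction kept. Rescaling turned the sign of Bcl2l11 and Bak1 between the genotypes at P7, of Bcl2 at P14, and of Bcl2 and Apaf1 with age in the control, each within counting error. The largest shift was Bbc3 in the control, -2.29 with a pseudocount of 0.1 FPKM. Median-ratio scaling moved the median age difference of all genes by 0.10 and turned their limma age calls from 3775 higher and 5083 lower to 4512 and 4231. Apaf1 lost its age call in the KO under 3 alternatives, the TPM scale, the long-gene scale and the rule of at least 0.26 in log2(FPKM + 1). Its difference there was 0.25, while its ratio in FPKM was 1.29. The 7 age calls of limma held under all 5 alternatives, with adjusted p up to 0.0334 for Bak1, and 0 of the 9 genes were called for genotype under any, Bbc3 having adjusted p from 0.163 to 0.793. Over all genes limma called 7 higher and 27 lower for genotype, but 2 higher and 0 lower with no filter on low values. No paired analysis was possible because each group is 1 library with no replicate number to pair by; the limma fit already compares ages within genotype and genotypes within age. Leaving out a library was not run, since it would empty its group and leave limma no residual degree of freedom. Depth limits Bbc3 most, with bounds up to 27.8% from their midpoint.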
